A study of Mus musculus with 27 samples.

Results

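The genes described here are 9 CC chemokine genes, Ccl2, Ccl3, Ccl4, Ccl6, Ccl7, Ccl8, Ccl9, Ccl12 and Ccl24, in microglia sorted from mouse brain tissue around an intracerebral hemorrhage (ICH). They were found by matching the gene identifiers of the count table to symbols of the GENCODE M21 annotation. All 9 were present among 56691 gene rows, and all 9 were among the 17573 genes that passed the filter on low counts and were tested. The series relates the gut microbiota to microglia in hemorrhage. It compared wild-type mice under specific pathogen-free conditions with no other treatment (SPF), wild-type mice given an antibiotic cocktail (ABX) and wild-type germ-free mice (GF). Each of these conditions has a group sampled on day 3 and a group sampled on day 7 after injection of collagenase, an enzyme that breaks vessel walls and causes bleeding, and a sham group that received PBS and is labelled day 7. Comparisons of day 3 with sham therefore also differ in day. Each of the 9 groups has 3 libraries, 27 in all, and the labels give no age or sex and do not state whether the 3 libraries of a group come from separate animals, so p-values measure the spread between these libraries, which may be technical.

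CC chemokines are small secreted proteins that guide leukocytes along concentration gradients through G protein-coupled receptors on the cell surface. Ccl2, Ccl7, Ccl8 and Ccl12 form the monocyte chemoattractant group, whose main receptor on inflammatory monocytes is Ccr2. Ccl3 and Ccl4, the macrophage inflammatory proteins, draw monocytes, macrophages and T cells, and Ccl3 is a ligand of Ccr1. Ccl6 and Ccl9 are Ccr1 ligands of rodents that myeloid cells make without stimulation, and Ccl24 is an eotaxin that attracts eosinophils through Ccr3. In the injured brain, microglia are among the sources of these proteins.

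On GRCm38, 8 of the 9 genes lie in a pair of clusters on chromosome 11. The monocyte chemoattractant genes lie together on the plus strand, Ccl2 at 82035571 to 82037453, Ccl7 at 82045712 to 82047525, Ccl12 at 82101845 to 82103400 and Ccl8 at 82115185 to 82116799. Ccl9 (83572919 to 83578636), Ccl6 (83587882 to 83593087) and Ccl3 (83647844 to 83649355) lie on the minus strand of the other cluster, and Ccl4 (83662584 to 83664683) on its plus strand. Ccl24 is on chromosome 5 at 135569937 to 135573049, minus strand. No stretch of 50 bases of a member transcript other than Ccl9 occurred in the transcripts of another gene. Ccl9 shared at most 24 of its 2996 such stretches with any single other gene, and such stretches occurred in 250 other genes. Ccl6 and Ccl2 are each overlapped over their whole length by a gene on the opposite strand, and no source used here gives the strand setting of the counting, so reads of each pair cannot be told apart by strand. The table gives 236 counts in all libraries together to the partner of Ccl6, E230016K23Rik, against 861530 to Ccl6, and 0 to the partner of Ccl2, Gm17268, against 124517 to Ccl2.

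The table of RefSeq promoters used here (GRCm38.p6) holds 5 of the 9 genes, and the 250 bases before the start are shown for the 4 whose position or course pairs them. Ccl12 and its neighbour Ccl8 are shown first, plus strand, chr11:82101595-82101844 and chr11:82114935-82115184. Capitals mark TATAAA, a core promoter element, which begins 31 bases before the start of Ccl12 and 32 bases before the start of Ccl8.
Ccl12: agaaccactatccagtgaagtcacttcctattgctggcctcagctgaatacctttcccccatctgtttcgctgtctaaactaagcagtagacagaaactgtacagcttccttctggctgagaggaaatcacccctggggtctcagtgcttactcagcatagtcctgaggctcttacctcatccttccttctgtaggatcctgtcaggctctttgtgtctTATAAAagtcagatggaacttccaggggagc
Ccl8: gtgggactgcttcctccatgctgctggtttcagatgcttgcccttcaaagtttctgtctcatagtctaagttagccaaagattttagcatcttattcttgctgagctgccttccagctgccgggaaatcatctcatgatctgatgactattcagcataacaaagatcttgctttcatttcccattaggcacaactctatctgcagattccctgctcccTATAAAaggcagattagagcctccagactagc

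Ccl6 and Ccl9 are shown because their levels followed each other across the libraries. Both are on the minus strand, at chr11:83593088-83593337 and chr11:83578637-83578886. Capitals mark the longest exact stretch that both sequences hold, 13 bases, which begins 55 bases before the start of Ccl6 and 14 bases before the start of Ccl9. The longest stretch shared by any of the other 9 pairs among the 5 sequences was 7 to 9 bases.
Ccl6: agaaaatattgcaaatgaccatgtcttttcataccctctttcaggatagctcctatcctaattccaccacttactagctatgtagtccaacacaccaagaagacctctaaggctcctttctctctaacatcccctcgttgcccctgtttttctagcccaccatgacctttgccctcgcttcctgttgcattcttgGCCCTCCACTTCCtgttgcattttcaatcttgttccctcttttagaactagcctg
Ccl9: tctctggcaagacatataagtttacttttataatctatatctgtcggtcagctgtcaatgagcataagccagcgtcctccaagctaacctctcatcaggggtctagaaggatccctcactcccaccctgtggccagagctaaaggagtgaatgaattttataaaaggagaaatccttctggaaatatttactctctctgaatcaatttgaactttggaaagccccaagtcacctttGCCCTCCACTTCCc

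Motifs were searched on both strands from 250 bases before to 50 bases after the start. The AP-1 motif TGANTCA occurred only in Ccl9 among the 5, 53 to 47 bases before the start, where the match reads on both strands, and 7.81% of all 32851 promoters in the table hold it. The NF-kB motif, searched by its 10-base consensus, also occurred only in Ccl9, on the opposite strand 35 to 26 bases before the start, against 8.46% of all promoters. The ETS motif GAGGAAG occurred in Ccl8, on the opposite strand 241 to 235 bases before the start, against 13.6% of all. The STAT motif TTCNNNGAA, which 8.3% of promoters hold, and the interferon-stimulated response element, which 3.44% hold, occurred in none of the 5. TATAAA, added to the search after the sequences were seen, occurred in Ccl12, Ccl8 and Ccl9, against 13.6% of all promoters.

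The libraries hold 41664864 to 79090595 counts. All 10 microglial marker genes, among them P2ry12 and Tmem119, were detected in every group, with a summed level of 21305 to 113742 CPM (each gene's counts relative to the library size, which was scaled by TMM). Of these markers 4 were lower and 1 higher in GF day 7 against sham (among Csf1r, Olfml3, Cx3cr1, Gpr34 and Tmem119), 4 lower and 3 higher against day 3, and 3 lower and 2 higher against SPF day 7, while Gpr34 and P2ry12 were lower in ABX day 3 than in sham and 4 were higher in ABX day 7 than in day 3. Fewer than 12000 genes were detected in 7 of the 27 libraries, namely the whole group of GF mice at day 7 after ICH and, with numbers 1 and 2, a pair each of ABX day 7 and GF sham. The summed level of 10 neutrophil markers was 919.6 to 3803 CPM in GF ICH day 7 against 42.9 to 895 CPM in the other 24 libraries, with Mmp9 at 0 in that group. Ly6g, a defining neutrophil marker, was at 0 in every library of the 7 groups other than GF day 3 and GF day 7. The summed level of 11 monocyte markers was 643 to 2104 CPM in GF ICH day 7 and 16.4 to 915 CPM in ABX ICH day 7, against 8.42 to 616 CPM elsewhere. The median log2 fold change of all tested genes was −0.79 in ABX and −2.10 in GF mice at day 7 against sham and −0.03 in SPF mice, and with DESeq2 size factors it moved to −1.19, −2.63 and −0.15. Members are therefore read beside these medians, and in bulk samples fewer cells of a type and less RNA per cell cannot be told apart.

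**Figure D1:**
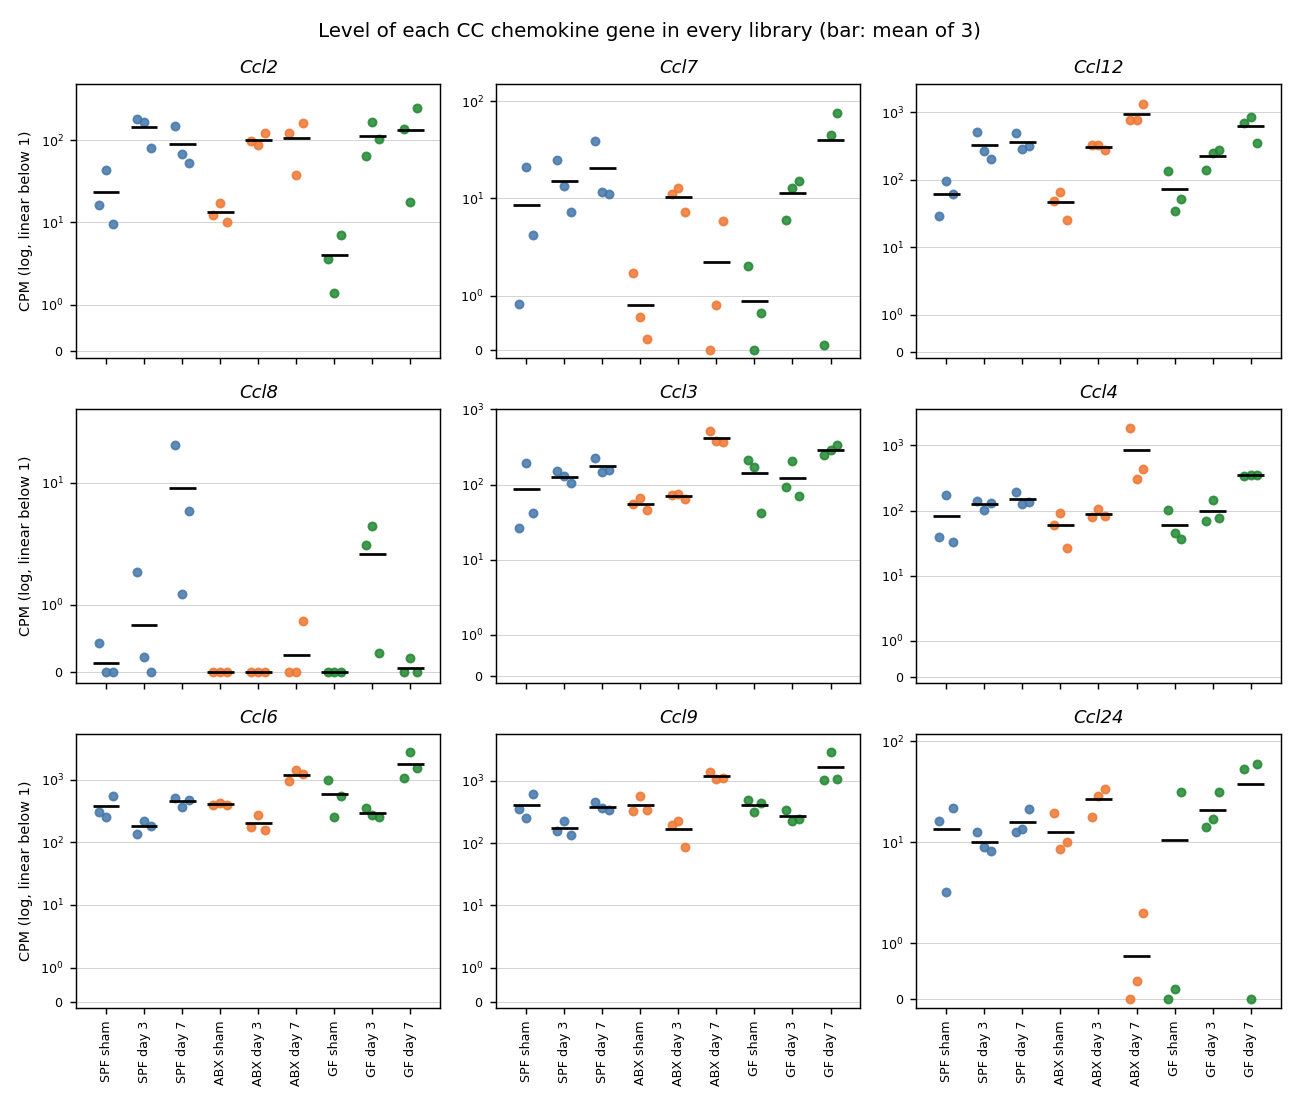
CPM of each of the 9 genes (vertical axis, logarithmic above 1 and linear below) in the 27 libraries by group (horizontal axis), in blue for SPF, orange for ABX and green for GF; black bars are means of 3. Ccl6 and Ccl9 were at 87.8 CPM or more in all libraries, and Ccl8 was at 0 in all 9 libraries of ABX sham, ABX day 3 and GF sham.

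Ccl12 was the member with the clearest course. This monocyte chemoattractant of the mouse was at 28.9, 93.8 and 61.5 CPM in the SPF shams, at 499.7, 264 and 203 CPM at day 3 and at 492, 281 and 317 CPM at day 7. Every ICH library of SPF mice lay above every SPF sham. In ABX mice it was at 47.4, 65.5 and 24.8 CPM in sham, 324, 321 and 274 CPM at day 3 and 752, 758 and 1321 CPM at day 7, so the 3 groups did not overlap. On raw totals day 3 and day 7 overlapped in ABX and in GF mice, and both lay above sham. In GF mice it was at 133, 34.5 and 51.5 CPM in sham, 139, 251 and 277 CPM at day 3 and 696, 854 and 343 CPM at day 7, without overlap between the groups, although the highest sham and the lowest day 3 library lay close together. 

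Against sham at day 7, Ccl12 rose by 4.36 ± 0.63 on the log2 scale in ABX mice (edgeR adjusted p = 0.000534) and by 3.11 ± 0.60 in GF mice (edgeR adjusted p = 0.00171). In SPF mice the value was 2.56 ± 0.58 (edgeR adjusted p = 0.13). At day 3 it was 2.39 ± 0.58 in SPF mice (edgeR adjusted p = 0.186), 2.74 ± 0.59 in ABX mice (edgeR adjusted p = 0.0662) and 1.61 ± 0.56 in GF mice (edgeR adjusted p = 0.797), so none of these passed the threshold of 0.05. In the fit without the 7 libraries under 12000 detected genes, Ccl12 passed in SPF mice at day 3 (adjusted p = 0.0111) and day 7 (0.014) and in ABX mice at day 3 (0.00472). The call in GF mice at day 7 ended with offsets for GC content (log2 fold change 1.47, adjusted p = 0.0833) and in a fit of those 6 libraries alone (adjusted p = 0.163).

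Summed markers of other cells were higher together with Ccl12 in SPF mice and at day 3 in ABX mice. No single monocyte or border macrophage marker passed against sham in SPF or ABX mice. In SPF mice the summed border macrophage markers were at 1.28 to 9.10 CPM in sham, 88.0 to 195 CPM at day 3 and 96.8 to 301 CPM at day 7, and the summed monocyte markers at 9.07 to 40.0, 62.7 to 118 and 42.6 to 204 CPM. In ABX mice the border macrophage sum was 4.89 to 26.2 CPM in sham and 86.1 to 205 CPM at day 3, and the monocyte sum 8.42 to 25.9 and 52.7 to 105 CPM. At day 7 replicate 1 of ABX mice had 16.4 CPM of monocyte and 2.13 CPM of border macrophage markers with Ccl12 at 752 CPM, and replicates 2 and 3 had 346.5 and 915 CPM of monocyte markers with Ccl12 at 758 and 1321 CPM. Replicate 1 has only 10184 detected genes and the lowest TMM factor of all libraries, 0.476, and on raw totals its Ccl12 was at 358 CPM against 31.9 to 75.4 CPM in the ABX shams. In GF mice the monocyte sum was 36.9 to 616 CPM in sham and 643 to 2104 CPM at day 7. The border macrophage sum of GF mice was 12.7 to 617 CPM in sham and 56.3 to 169 CPM at day 7, with overlap. Both highest sham values were those of GF sham replicate 1. At day 3 both sums of GF mice lay within the range of the GF shams. The part of these cells in the Ccl12 and Ccl2 levels was not tested.

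Ccl2, the best known Ccr2 ligand, was higher after hemorrhage in all conditions, but with a wide spread at day 7. In SPF mice it was at 16.5, 43.3 and 9.72 CPM in sham, 179.8, 166 and 81.1 CPM at day 3 and 149.6, 67.0 and 52.8 CPM at day 7. In ABX mice the values were 12.3, 17.3 and 10.2 CPM in sham, 96.4, 87.0 and 121 CPM at day 3 and 123, 38.0 and 160.4 CPM at day 7. In GF mice they were 3.59, 1.39 and 7.13 CPM in sham, 64.4, 166 and 103 CPM at day 3 and 137, 17.5 and 241 CPM at day 7. In each condition every ICH library lay above every sham, and the day 3 and day 7 groups overlapped.

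The GF shams had the lowest Ccl2 of the 9 groups and all 3 lay below every sham of the other conditions. Against SPF sham the log2 fold change was −2.52 ± 0.90 (edgeR adjusted p = 0.671), which did not pass. From this low level Ccl2 rose by 5.03 ± 1.01 on the log2 scale in GF mice at day 7 (edgeR adjusted p = 0.00225). Limma voom with quality weights (adjusted p = 0.105) and a fit of the 6 libraries alone (adjusted p = 0.317) ended that call. At day 3 the log2 fold change in GF mice was 4.78 ± 0.99 (edgeR adjusted p = 0.163). In SPF mice it was 2.62 ± 0.90 at day 3 and 1.96 ± 0.88 at day 7, and in ABX mice 2.93 ± 0.91 and 3.01 ± 0.92, with edgeR adjusted p from 0.114 to 0.897. Without the 7 libraries of low gene detection Ccl2 passed at day 3 in SPF mice (adjusted p = 0.0201) and ABX mice (0.0101). That fit keeps 1 library of ABX day 7, replicate 3 with Ccl2 at 160.4 CPM, so no call is given for that group.

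Ccl7 and Ccl8, the other members of the monocyte chemoattractant group, were low. Ccl7 in SPF mice was at 0.836, 20.9 and 4.25 CPM in sham, 24.9, 13.5 and 7.28 CPM at day 3 and 39.5, 11.6 and 11.1 CPM at day 7, with overlap between sham and both ICH groups. In ABX mice it was at 1.70, 0.596 and 0.192 CPM in sham, 11.2, 12.7 and 7.34 CPM at day 3 and 0, 0.83 and 5.85 CPM at day 7. GF mice had 2.01, 0 and 0.669 CPM in sham, 6.01, 12.8 and 14.99 CPM at day 3 and 0.0842, 44.6 and 76.1 CPM at day 7. The day 3 libraries of ABX and GF mice thus lay above their shams, while day 7 held libraries at or near 0 next to others that were high in GF mice. The log2 fold change against sham at day 3 was 3.65 ± 1.97 in ABX and 3.66 ± 1.97 in GF mice (edgeR adjusted p = 0.603 and 0.797), and no comparison of Ccl7 passed in edgeR.

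Ccl8 had counts in 1 of 3 SPF shams (0.432 CPM), in 2 of 3 SPF libraries at day 3 (1.86 and 0.229 CPM) and in all 3 at day 7 (20.3, 1.22 and 5.85 CPM). It was at 0 in all 9 libraries of ABX sham, ABX day 3 and GF sham. In GF mice it was at 3.10, 4.40 and 0.283 CPM at day 3 and at 0.207 CPM in 1 of 3 libraries at day 7, and in ABX mice at day 7 at 0.761 CPM in 1 of 3. Set against 3 counts per library in GF sham, the mean of GF day 3 was at least 34.3-fold higher. The log2 fold change against sham in SPF mice was 2.25 ± 2.81 at day 3 and 5.96 ± 3.33 at day 7 (edgeR adjusted p = 1 and 0.916), and no comparison of Ccl8 passed in edgeR.

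Ccl3 and Ccl4, the macrophage inflammatory proteins, differed most from sham in ABX mice at day 7. Ccl4 was at 61.1, 92.2 and 27.1 CPM in ABX sham, 80.4, 105 and 81.3 CPM at day 3 and 1841, 301 and 428 CPM at day 7, where replicate 1 was far above the other libraries. GF mice had 100.5, 45.8 and 36.8 CPM in sham, 70.5, 146 and 76.4 CPM at day 3 and 344, 347 and 354 CPM at day 7. In SPF mice it was at 39.5, 174 and 32.5 CPM in sham, 142, 104 and 131 CPM at day 3 and 194, 128 and 134 CPM at day 7. All 6 day 7 libraries of ABX and GF mice lay above all 21 others, whereas sham, day 3 and day 7 overlapped in SPF mice.

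Against sham at day 7, Ccl4 rose by 3.83 ± 0.75 on the log2 scale in ABX mice (edgeR adjusted p = 0.01) and by 2.51 ± 0.71 in GF mice (edgeR adjusted p = 0.0198), and the log2 fold change was 0.89 ± 0.68 in SPF mice (edgeR adjusted p = 1). Against day 3, Ccl4 rose by 3.27 ± 0.73 in ABX mice (edgeR adjusted p = 0.0307), and the log2 fold change was 1.83 ± 0.69 in GF mice (edgeR adjusted p = 0.071). Without ABX day 7 replicate 1 the log2 fold change was 2.60 against sham (adjusted p = 0.11) and 2.03 against day 3 (adjusted p = 0.294). Leaving out any single ABX sham also ended the call against sham (adjusted p = 0.103, 0.0578 and 0.132 for replicates 1 to 3), as did a fit of the 6 libraries alone (0.0973) and, for the call in GF mice, leaving out GF sham replicate 2 (0.0711) or 3 (0.0746), DESeq2 size factors (0.0978) or the 6 libraries alone (0.288). Leaving out any single ABX day 3 library ended the call against day 3 (adjusted p = 0.186, 0.115 and 0.192), as did no filter (0.135), DESeq2 size factors (0.0596) and a fit of the 6 libraries alone (0.195). The fit without the libraries of low gene detection keeps 1 library of ABX day 7, so no call is given from it.

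Ccl3 in ABX mice was at 54.3, 65.3 and 46.4 CPM in sham, 72.8, 74.1 and 63.2 CPM at day 3 and 514, 383 and 369.8 CPM at day 7. In GF mice it was at 215, 169.8 and 42.3 CPM in sham, 93.7, 207 and 69.4 CPM at day 3 and 246, 291 and 336 CPM at day 7. In SPF mice it was at 26.6, 193 and 41.9 CPM in sham, 151, 128 and 104 CPM at day 3 and 227, 146 and 155 CPM at day 7. The day 7 libraries of ABX mice had the highest Ccl3 of all groups and those of GF mice the next highest, without overlap between these groups, while the SPF and GF shams were widely spread. On raw totals ABX day 7, at 238 to 323 CPM, overlapped GF day 7 (214 to 268 CPM) and SPF day 7 (161 to 248 CPM) and still lay above the ABX shams.

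In ABX mice at day 7 Ccl3 rose by 2.93 ± 0.69 on the log2 scale against sham (edgeR adjusted p = 0.0403). That call ended when any library of the 6 other than ABX day 7 replicate 3 was left out: adjusted p was 0.204, 0.179 and 0.241 without ABX sham replicates 1 to 3, and 0.106 and 0.0583 without ABX day 7 replicates 1 and 2. It also ended with DESeq2 size factors (0.084), without the filter on low counts (0.166) and in a fit of the 6 libraries alone (0.0973). The log2 fold change at day 7 was 1.03 ± 0.65 in GF mice (edgeR adjusted p = 0.246) and 1.02 ± 0.65 in SPF mice (edgeR adjusted p = 1).

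Ccl6 and Ccl9 followed another course: their levels were lower at day 3 than in sham and highest at day 7 of ABX and GF mice. Ccl9 in SPF mice was at 353, 255 and 619 CPM in sham, 154, 227 and 136 CPM at day 3 and 455, 362 and 342 CPM at day 7. In ABX mice it was at 328, 570.3 and 346 CPM in sham, 194, 225 and 87.8 CPM at day 3 and 1368, 1060.2 and 1105 CPM at day 7. GF mice had 489, 315 and 447 CPM in sham, 342, 224 and 241 CPM at day 3 and 1028, 2877 and 1077 CPM at day 7. The day 3 libraries lay below all shams of their condition in SPF and ABX mice and overlapped them in GF mice, and all 6 day 7 libraries of ABX and GF mice lay above the other 21. On raw totals ABX day 7 replicates 1 and 3, at 651 and 711 CPM, lay below the highest SPF sham, at 755 CPM, and replicate 1 below the highest ABX sham, at 657 CPM.

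Ccl6 in SPF mice was at 311, 259 and 560.3 CPM in sham, 139, 222 and 181 CPM at day 3 and 511, 373 and 480.0 CPM at day 7. In ABX mice it was at 403, 421 and 402 CPM in sham, 179.7, 274 and 157 CPM at day 3 and 962, 1447 and 1242 CPM at day 7. In GF mice it was at 987, 252 and 557 CPM in sham, 351, 272 and 257 CPM at day 3 and 1074, 2749 and 1522 CPM at day 7. GF day 7 replicate 2 was the highest library for both genes, and the GF shams of Ccl6 reached the level of ABX day 7 in 1 library. On raw totals Ccl6 in ABX day 7 replicate 1 was at 458 CPM, below the 3 ABX shams at 465 to 516 CPM.

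Between day 3 and day 7, Ccl9 rose by 2.80 ± 0.47 on the log2 scale in ABX mice (edgeR adjusted p = 0.00331) and by 2.63 ± 0.47 in GF mice (edgeR adjusted p = 0.00119). Ccl6 rose by 2.58 ± 0.46 in ABX mice (edgeR adjusted p = 0.00512) and by 2.60 ± 0.46 in GF mice (edgeR adjusted p = 0.00106). In SPF mice the same change was 1.16 ± 0.45 for Ccl9 and 1.33 ± 0.44 for Ccl6, with every day 7 library above every day 3 library, and did not pass (edgeR adjusted p = 0.971 for both). In ABX mice the calls ended without ABX day 3 replicate 3 (adjusted p = 0.0635 for Ccl9 and 0.0935 for Ccl6), and that of Ccl6 also without replicate 1 of that group (0.0729). With GC offsets the rise of Ccl9 in GF mice was 0.75 (adjusted p = 0.217), while that of Ccl6, at 1.47, passed. The median log2 fold change of all tested genes from day 3 to day 7 was −0.33 in ABX and −2.49 in GF mice.

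Against sham at day 7, Ccl9 rose by 1.99 ± 0.46 (edgeR adjusted p = 0.00571) and Ccl6 by 1.57 ± 0.44 (edgeR adjusted p = 0.0189) in GF mice. In ABX mice the log2 fold changes were 1.51 ± 0.45 and 1.58 ± 0.44 (edgeR adjusted p = 0.11 and 0.0861), and in SPF mice −0.08 ± 0.44 and 0.27 ± 0.43 (edgeR adjusted p = 1 for both). Without GF day 7 replicate 2 the log2 fold changes in GF mice were 1.34 for Ccl9 (adjusted p = 0.0561) and 1.12 for Ccl6 (adjusted p = 0.118), and the call of Ccl6 also ended without GF sham replicate 2 (0.0882) or 3 (0.0552). GC offsets brought both to 0.26 and 0.28 (adjusted p = 0.691 and 0.669). Across 1649 abundant genes the log2 fold change in this comparison was lower at higher GC content (Spearman r = −0.53). For GF day 7 against day 3 and against SPF day 7, r was −0.728 and −0.632. With the offsets the 3 values were 0.227, 0.268 and 0.284. The call of Ccl6 held in 2 of 7 alternatives and also ended under DESeq2 (0.91, adjusted p = 0.171), DESeq2 size factors (0.17), no filter (0.0682) and a fit of the 6 libraries alone (0.229), and that of Ccl9 ended in the last (0.168). At day 3 the log2 fold changes against sham were −1.25 ± 0.45 and −1.06 ± 0.44 in SPF mice, −1.29 ± 0.45 and −1.004 ± 0.43 in ABX mice and −0.63 ± 0.44 and −1.03 ± 0.43 in GF mice for Ccl9 and Ccl6, with edgeR adjusted p from 0.591 to 0.842, so the lower levels at day 3 did not pass.

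**Figure D2:**
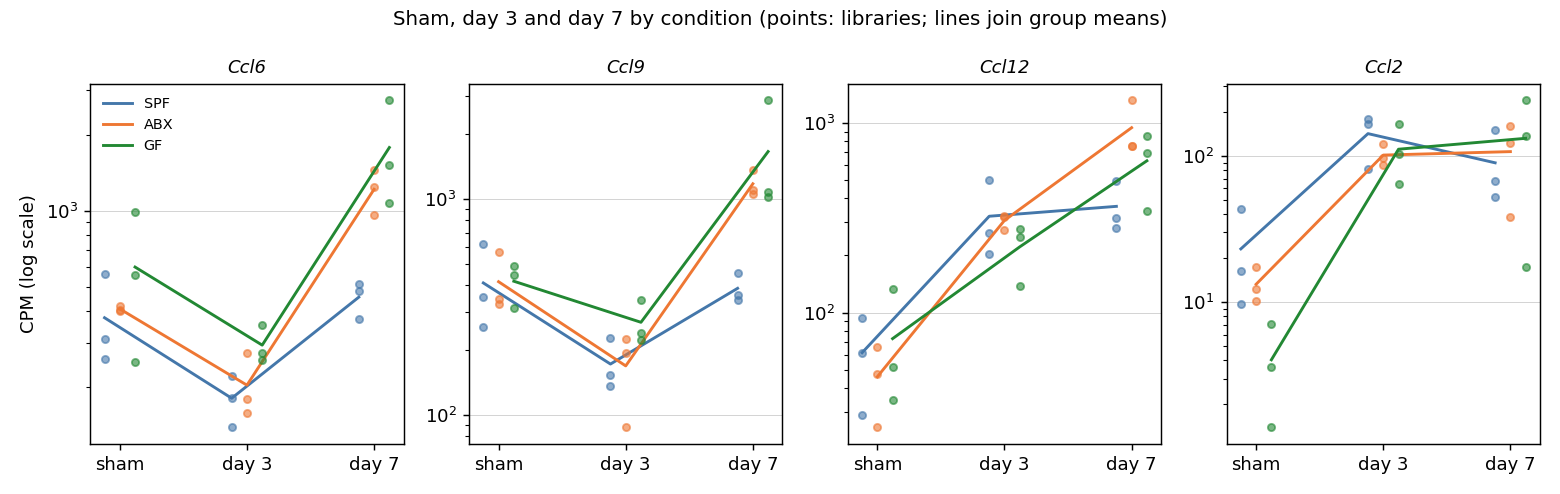
CPM on a log axis of Ccl6, Ccl9, Ccl12 and Ccl2 in sham, at day 3 and at day 7 (horizontal axis), with points for libraries and lines joining the means of 3 for SPF (blue), ABX (orange) and GF (green). Ccl6 and Ccl9 have their lowest mean at day 3 in each condition, while Ccl12 and Ccl2 are above sham at day 3.

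Ccl24 was at 16.1, 3.18 and 21.7 CPM in SPF sham, 12.7, 8.93 and 8.14 CPM at day 3 and 12.7, 13.5 and 21.4 CPM at day 7. In ABX mice it was at 19.3, 8.63 and 10.04 CPM in sham, 17.8, 28.6 and 34.0 CPM at day 3 and 0, 0.325 and 2.00 CPM at day 7. GF mice had 0, 0.174 and 31.2 CPM in sham, 14.0, 17.1 and 31.5 CPM at day 3 and 52.8, 0 and 59.6 CPM at day 7. Of the 7 libraries under 12000 detected genes, 5 had Ccl24 at 0.325 CPM or less, whereas replicates 1 and 3 of GF day 7 had the highest levels of all 27. The log2 fold change in ABX mice at day 7 was −4.02 ± 2.12 against sham (edgeR adjusted p = 0.249) and −5.10 ± 2.23 against day 3 (edgeR adjusted p = 0.221). DESeq2 gave −4.59 (adjusted p = 0.0194) and −5.64 (adjusted p = 0.00347) for the same changes.

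Counted over the 9 genes, no member passed at day 3 against sham in SPF mice, where 0.102% of all tested genes passed in either direction, in ABX mice (0.125%) or in GF mice (0.00569%). Unadjusted p was under 0.05 for 4 members in each, where 7.26%, 8.27% and 5.29% of all genes had such a p. DESeq2 called Ccl2 and Ccl12 in SPF mice (5.89% of all genes) and ABX mice (6.7%) and Ccl2 in GF mice (4.39%), and limma voom called Ccl2 and Ccl12 in SPF (2.86%) and ABX mice (4.89%) and none in GF mice (0%). At day 7, none passed in SPF mice (0.0797% of all genes), 3 rose in ABX mice (Ccl3, Ccl4 and Ccl12, where 0.734% of all genes rose) and 5 rose in GF mice (Ccl2, Ccl4, Ccl6, Ccl9 and Ccl12, where 1.7% of all genes rose and 2238 fell). In SPF mice 2 members had an unadjusted p under 0.05 (5.01% of all genes), and DESeq2 (4.38% of all genes) and limma voom (0.831%) each called Ccl12. Fits of the compared groups alone called Ccl12 in ABX mice and none of the 5 in GF mice. The median log2 fold change of the members at day 7 was 1.02 in SPF, 2.93 in ABX and 2.51 in GF mice, beside medians of all genes of −0.03, −0.79 and −2.10. With Ccl8 at its bound, since it was at 0 in ABX sham, the ABX median was 2.43. No member fell in any of the 19 edgeR comparisons. On raw totals in place of TMM, the means in ABX sham and day 7 were 54.0 and 615 CPM for Ccl12, 489 and 825 CPM for Ccl6 and 493 and 752 CPM for Ccl9.

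By non-overlap alone, all 3 ICH libraries lay above all 3 shams for 2 of 9 members at day 3 in SPF mice, where 9.18% of all genes did so, for 3 in ABX mice (9.74%) and for 4 in GF mice (10.8%). At day 7 the counts were 3 in SPF mice (5.94%), 6 in ABX mice (7.8%) and 6 in GF mice (5.34%), and Ccl24 lay wholly below sham in ABX mice (22.4%). On raw totals the count in ABX mice at day 7 was 4, without Ccl6 and Ccl9, and the counts of the other groups at day 7 were the same. At day 3 the counts above sham on raw totals were 2 in SPF mice, 4 in ABX mice, with Ccl3 added, and 5 in GF mice, with Ccl4 added. Ccl6 and Ccl9 were the 2 members whose day 3 libraries all lay below sham in SPF mice (6.98% of all genes) and in ABX mice (10.1%). From day 3 to day 7, libraries of 3 members moved apart upward in SPF mice (6.23%), where no gene of any kind passed the edgeR test (0%) and 719 genes had an unadjusted p under 0.05, while DESeq2 and limma voom also called none of the members. In ABX mice 5 members lay above (6.29%) and 3 passed upward (Ccl4, Ccl6 and Ccl9, 0.563% of all genes), and in GF mice 5 lay above (8.5%) and 2 passed upward (Ccl6 and Ccl9, 1.83%). Wholly below day 3 lay Ccl7 and Ccl24 in ABX mice (18.1%) and Ccl8 in GF mice (32.6%). On raw totals 2 members lay above in SPF mice, without Ccl24, 4 in ABX mice, without Ccl12, and 3 in GF mice, without Ccl3 and Ccl12.

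**Figure D3:**
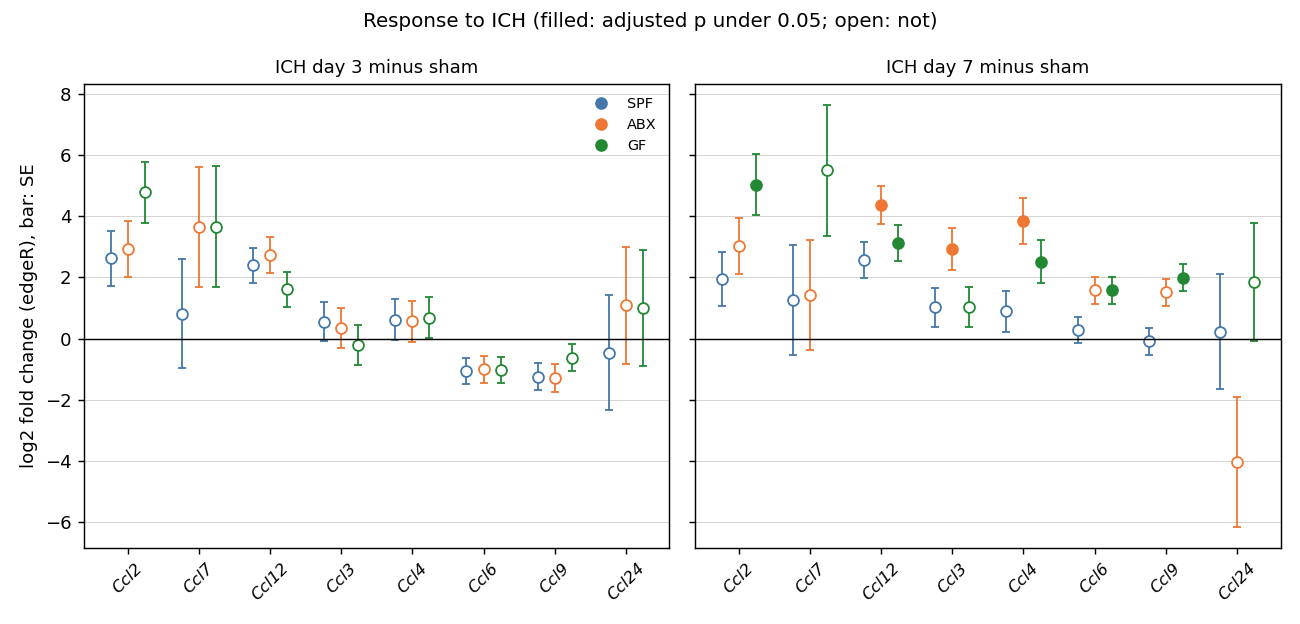
Log2 fold change against sham with its SE (vertical axis) at day 3 (left) and day 7 (right) for 8 genes (horizontal axis) in SPF (blue), ABX (orange) and GF mice (green); filled points passed adjusted p of 0.05. Ccl8 is left out because it was at 0 in whole groups; the 8 filled points are all at day 7 in ABX or GF mice, and none of the SPF points is filled.

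In the order of the 9 group means, most neighbouring groups overlapped. The lowest and highest mean levels were 4.04 CPM (GF sham) and 142 CPM (SPF day 3) for Ccl2, 55.4 CPM (ABX sham) and 422 CPM (ABX day 7) for Ccl3, and 60.1 and 857 CPM in the same groups for Ccl4. They were 181 CPM (SPF day 3) and 1782 CPM (GF day 7) for Ccl6, 169 CPM (ABX day 3) and 1660 CPM (GF day 7) for Ccl9, and 45.9 CPM (ABX sham) and 943 CPM (ABX day 7) for Ccl12. For Ccl7 they were 0.829 CPM (ABX sham) and 40.3 CPM (GF day 7), and for Ccl24 0.773 CPM (ABX day 7) and 37.5 CPM (GF day 7). Of the 8 steps between neighbours, 2 were free of overlap for Ccl2, Ccl3 and Ccl9 each, 1 for Ccl4, Ccl12 and Ccl24 each, and 0 for Ccl6, Ccl7 and Ccl8. For Ccl3 these were the steps from SPF day 7 to GF day 7 and from there to ABX day 7, and for Ccl12 the step from GF sham to GF day 3.

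Levels can be set against each other per exon length. In CPM per kb of exon, Ccl12 made up 14.8 ± 3.09% of the 9 genes' summed level in the SPF shams, 45.7 ± 8.64% at day 3 and 40.7 ± 1.34% at day 7 (SD, n = 3). Ccl6 made up 30.9 ± 14.2%, 8.59 ± 3.44% and 15.7 ± 2.58% in the same groups. In ABX mice the share of Ccl12 was 13.01 ± 3.33% (sham), 52.5 ± 2.52% at day 3 and 38.2 ± 13.9% at day 7, and in GF mice 14.1 ± 3.50%, 37.1 ± 9.53% and 30.6 ± 9.99%. The leading gene per length was thus Ccl6 in the mean of all 3 sham groups and Ccl12 in the means of all 6 ICH groups. The summed level of the 9 genes was 466 to 1396 CPM per kb in shams, 876 to 1673 at day 3, 1319 to 2171 at day 7 in SPF mice and 3169 to 5953 at day 7 in ABX and GF mice.

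**Figure D4:**
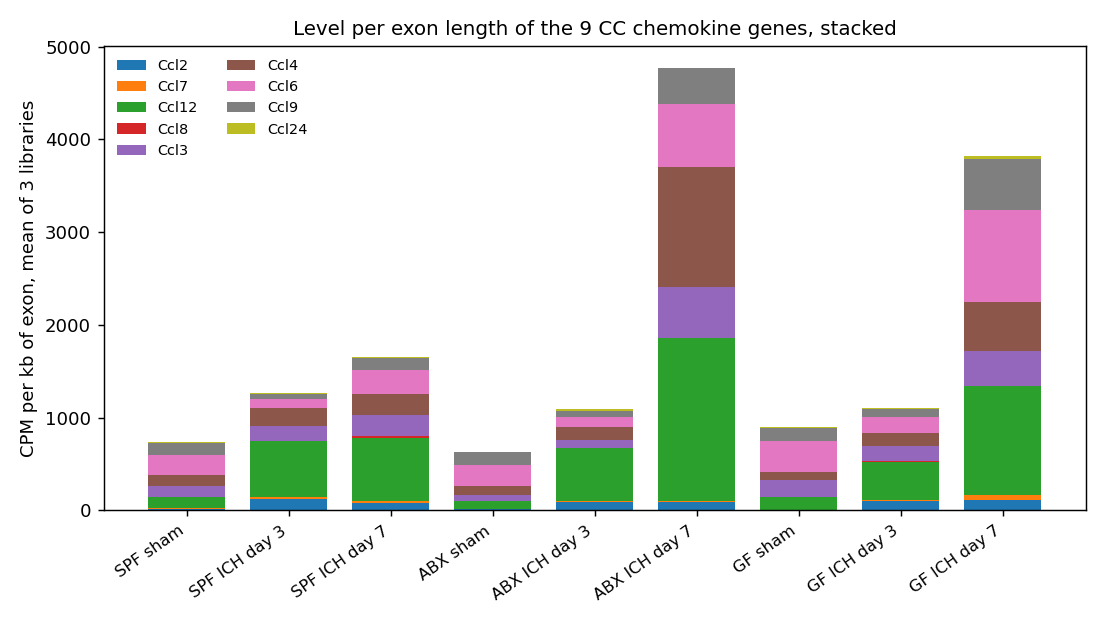
Mean CPM per kb of exon over 3 libraries (vertical axis), stacked by gene, for the 9 groups (horizontal axis). The stacks of ABX and GF ICH day 7 stand at 4769 and 3817, and Ccl12 alone is at 1757 and 1176 in them against 676 in SPF ICH day 7.

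The conditions were then compared at each time. In sham, no member differed between ABX and SPF (0% of all genes passed) or between GF and SPF mice (0.00569%). Unadjusted p was under 0.05 for 0 and 1 of the 9, where 712 and 1093 of all 17573 genes had such a p. No member was called by DESeq2 or limma voom. At day 3, none differed between ABX and SPF (0%) or GF and SPF mice (0%), and none was called by DESeq2 or limma voom. Unadjusted p was under 0.05 for 1 and 0 members, where 860 and 608 of all 17573 genes had such a p. The largest absolute log2 fold change of Ccl2, Ccl3, Ccl4, Ccl6, Ccl9 and Ccl12 was that of Ccl3 in ABX mice, −0.87 ± 0.65 (edgeR adjusted p = 1). At day 7, no member passed between ABX and SPF mice (0.0854% of all genes passed). All ABX libraries lay above all SPF libraries for 5 members, Ccl3, Ccl4, Ccl6, Ccl9 and Ccl12 (6.38% of all genes), with log2 fold changes of 1.26 to 2.50, and below them for 3, Ccl7, Ccl8 and Ccl24 (18.5% of all genes), with −3.21, −5.15 and −4.35 (edgeR adjusted p of 0.13 or more in each). On raw totals only Ccl4 and Ccl9 lay wholly above, and the same 3 wholly below. Unadjusted p was under 0.05 for 4 members, where 19.4% of all genes had such a p. DESeq2 called Ccl4 and Ccl9 higher and Ccl7 and Ccl24 lower, where it called 28.6% of all genes, and limma voom called Ccl6 and Ccl9 higher, where it called 1.39%.

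Between GF and SPF mice at day 7, Ccl9 was higher by 2.10 ± 0.46 on the log2 scale (edgeR adjusted p = 0.00649) and Ccl6 by 1.97 ± 0.45 (edgeR adjusted p = 0.00809), where 1.08% of all genes were higher and 2074 genes were lower. The median log2 fold change of all tested genes was −1.56. Ccl9 and Ccl6 both passed without each of the 6 libraries in turn, with log2 fold changes from 1.45 to 2.35 for Ccl9 and 1.51 to 2.23 for Ccl6, and both calls ended with GC offsets (0.61, adjusted p = 0.318, and 1.05, adjusted p = 0.114). Ccl12 (log2 fold change 0.80 ± 0.55), Ccl2 (0.56 ± 0.85), Ccl3 (0.73 ± 0.65) and Ccl4 (1.20 ± 0.68) did not pass. All 3 GF libraries are among those of low gene detection and have higher sums of neutrophil and monocyte markers than SPF day 7. Of single markers, 1 of 9 tested neutrophil markers (Retnlg) was higher than in SPF day 7. Of 11 monocyte markers 2 were higher and 1 lower, and Ly6i was at 0 in GF day 7. The part of gene detection or of these cells in these differences was not tested.

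The response to hemorrhage itself was compared between conditions by the interaction. At day 3 none of the 9 members differed in response between ABX and SPF (0% of all genes) or GF and SPF mice (0%). At day 7 none differed between ABX and SPF mice (0%), with the largest value for Ccl4, 2.94 ± 0.97 on the log2 scale (edgeR adjusted p = 0.369). Unadjusted p was under 0.05 for 0 and 0 members at day 3, where 980 and 999 of all 17573 genes had such a p. Between ABX and SPF mice at day 7 it was under 0.05 for 5 members, where 12.7% of all genes had such a p. DESeq2 called Ccl4 at day 7 (12.2% of all genes) and limma voom none (0.0683%). Between GF and SPF mice at day 7, the response of Ccl9 was larger in GF mice by 2.08 ± 0.63 (edgeR adjusted p = 0.0458), where 0.285% of all genes had a larger response and 1188 genes a lower one. The median of this interaction over all tested genes was −1.81. The call ended without 9 of the 12 libraries in turn (adjusted p from 0.0643 to 0.182) and under DESeq2 (0.104), while limma voom kept it (0.0442). For Ccl6 the same difference was 1.303 ± 0.61 (edgeR adjusted p = 0.184) and for Ccl2 it was 3.08 ± 1.23 (edgeR adjusted p = 0.121).

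Across the 27 libraries, the log2 levels of Ccl6 and Ccl9 followed each other most closely among the 36 pairs (Pearson r = 0.952), followed by Ccl3 and Ccl4 (0.874), Ccl4 and Ccl12 (0.818) and Ccl3 and Ccl12 (0.734). Ccl2 followed Ccl12 (0.718) and had r of −0.12 with Ccl9 and −0.112 with Ccl6. The correlations are a description: the points share groups, library scaling and gene detection. Among 6837 named protein-coding genes with a mean of at least 10 CPM, the 3 most like Ccl12 were Lyz2, Spp1 and Cd63 (0.937, 0.93 and 0.92), and those most like Ccl4 were C3ar1, Tpd52 and Atp6v1c1 (0.882, 0.882 and 0.869). Ccl6 was most like Ctss, Cd53 and Capza2 (0.919, 0.913 and 0.907), Ccl9 most like Cd53, Laptm4a and Ctss (0.94, 0.937 and 0.936), and Ccl3 most like Atp6v1c1, Sdcbp and Tpd52 (0.818, 0.814 and 0.81). Ccl2 was most like Ldha, Fxyd5 and Ifitm2 (0.88, 0.867 and 0.862), Ccl7 most like Bhlhe40, Spc25 and Mpp1 (0.86, 0.787 and 0.759), Ccl8 most like Irf7 and Ptchd1 (0.634 and 0.612) and Ccl24 most like Dpp3, Gsap and Mycbp (0.921, 0.913 and 0.907).

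Of 14 CC receptor genes, 11 were tested. Ccr2, the receptor of the monocyte chemoattractant group and itself one of the monocyte markers, was at 1.37, 0.588 and 0.683 CPM in GF sham, 1.55, 38.1 and 25.4 CPM in GF day 3 and 789.6, 283 and 184 CPM in GF day 7. It rose in GF day 7 by 8.90 ± 1.80 on the log2 scale against sham (edgeR adjusted p = 0.00252), by 4.27 ± 1.46 against day 3 (edgeR adjusted p = 0.0495) and by 4.94 ± 1.51 against SPF day 7 (edgeR adjusted p = 0.0333). In ABX day 7 it was at 3.04, 133 and 674 CPM and in SPF day 7 at 29.4, 7.67 and 3.76 CPM.

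Ccr7, which guides cells to lymph nodes, fell by 5.59 ± 1.58 from day 3 to day 7 in GF mice (edgeR adjusted p = 0.0203). Ccr1, a receptor of Ccl3, Ccl6 and Ccl9, passed in none of the 19 comparisons. It ranged from 0 to 513 CPM and split GF day 7 into 513, 51.5 and 0.336 CPM.

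**Figure D5:**
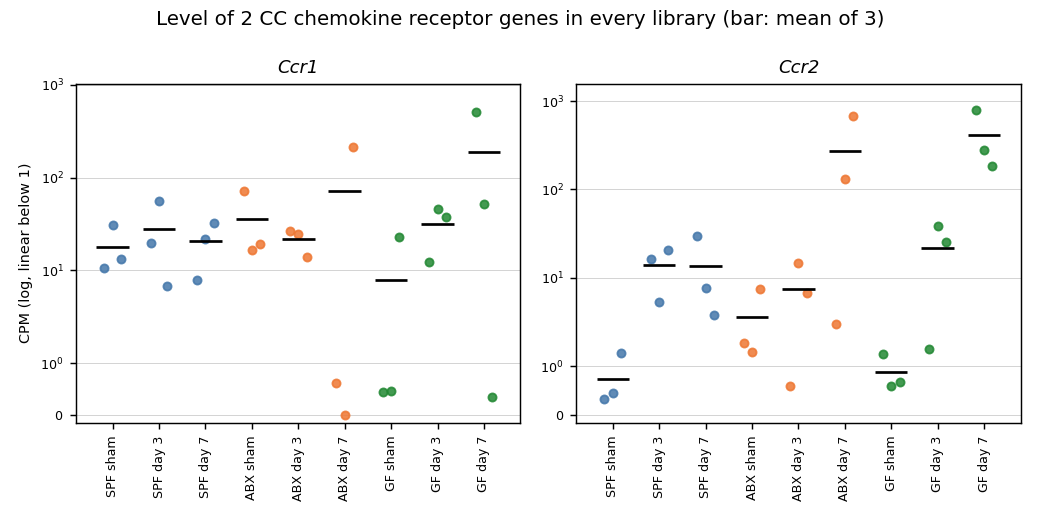
CPM (vertical axis, logarithmic above 1 and linear below) of Ccr1 and Ccr2 in the 27 libraries by group (horizontal axis), with black bars for means of 3. Ccr2 lies at 184 CPM or more in all 3 GF day 7 libraries, while Ccr1 differs among them from 0.336 to 513 CPM.

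Of 12 other CC ligand genes, 4 were tested (Ccl5, Ccl22, Ccl25 and Ccl27a) and none passed in any comparison. Ccl5, which T cells and macrophages make, was at 3.99, 2.55 and 7.49 CPM in ABX sham and at 138, 48.3 and 65.0 CPM in ABX day 7, without overlap. Of 16 CXC and CX3C ligand genes, 9 were tested, and 1 passed in 1 comparison: Cxcl16, a membrane-anchored chemokine, rose by 2.80 ± 0.60 in ABX mice at day 7 against sham (edgeR adjusted p = 0.0208), from 133, 106 and 108 CPM to 1422, 315 and 683 CPM. Cxcl16 also lay above sham without overlap in ABX day 3 (285 to 328 CPM). In SPF mice it was at 80.8 to 106 CPM in sham, 244 to 350 CPM at day 3 and 220 to 284 CPM at day 7. In GF mice the sham range of 50.1 to 364 CPM held both day 3 (177 to 219 CPM) and day 7 (74.0 to 162 CPM).

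The last list held 14 genes for cytokines that induce chemokines and for feedback of NF-kB signalling, all tested. In GF mice at day 7 against sham 2 rose and 4 fell. Il1a, for interleukin 1 alpha, rose by 3.44 ± 0.98 (edgeR adjusted p = 0.021), from 4.92, 15.8 and 152 CPM to 307, 977 and 597 CPM, and Il1b rose by 8.35 ± 2.28 (edgeR adjusted p = 0.0164), from 0.161, 0.545 and 0.382 CPM to 162, 39.3 and 158 CPM. Rela, which encodes an NF-kB subunit, fell (edgeR adjusted p = 0.00172), from 583, 0.414 and 34.6 CPM in sham, a wide spread, to 0.19, 0.545 and 0.505 CPM. The feedback genes Nfkbie (0 in all 3 libraries of day 7), Tnfaip3 and Nfkbiz also fell (edgeR adjusted p = 0.0113, 0.0103 and 0.0438), beside 2238 genes of all kinds that fell in this comparison. In GF sham Nfkbie was at 0, 25.2 and 17.8 CPM, Tnfaip3 at 0.483, 18.1 and 5.50 CPM and Nfkbiz at 0.766, 13.8 and 11.3 CPM. Nfkb1 fell in ABX mice at day 7 against sham (edgeR adjusted p = 0.0267), from 93.8, 54.9 and 94.7 CPM to 0.284, 0.108 and 2.55 CPM. Rela, Nfkbie, Tnfaip3 and Nfkbiz also fell in GF day 7 against GF day 3 and were lower than in SPF day 7, and no gene of the list passed in SPF mice against sham. Leaving out 1 library ended the call of Il1a in 3 of 6 fits, of Il1b in 2 and of Nfkb1 in 5, and that of Cxcl16 in 4. It ended the call of Nfkbiz in 4, 4 and 5 of 6 fits against sham, day 3 and SPF day 7, that of Ccr7 in 3, and that of Ccr2 against day 3 in all 6 and against SPF day 7 in 3. The call of Nfkbie held in all 6 such fits against sham, in 5 against day 3 and in 4 against SPF day 7.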

How the data were processed

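RNA from sorted microglia of the tissue near the hematoma was made into low-input libraries with the SMART-Seq v4 kit and sequenced in pairs, per the labels' protocols. Tools listed in the submitters' processing notes are HISAT2 2.0.4, cutadapt 1.9, edgeR and StringTie 1.3.4d, with the build mm10. The annotation release, strand setting and counting of mates are not given in the sources used here. The deposited table holds whole-number counts per gene, per the file headers, and the authors' counts were used as deposited. Symbols and coordinates come from GENCODE M21 (52073 of 56691 identifiers matched), and rows without a symbol hold 1.27% of counts.

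Genes were kept by filterByExpr, which left 17573 genes with 99.9% of counts. Library sizes were scaled by TMM (factors 0.476 to 1.31). A quasi-likelihood fit of edgeR 4.0.16 in R 4.3.3 over all 27 libraries and 9 groups gave 19 comparisons, with Benjamini-Hochberg adjustment over all tested genes and a threshold of 0.05. SE were taken from the F statistic, and the common biological coefficient of variation was 1.54. Levels are CPM on TMM-scaled totals, and log2 CPM for correlations used a prior count of 2. Where a whole group was at 0, bounds used 3 counts per library. The fit was also run on simulated counts for SPF day 3 against sham alone, with the spread between libraries set low. It does not bear on the day 7 calls.

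Alternatives were DESeq2 1.42.0, limma 3.58.1 voom with quality weights, DESeq2 size factors, no filter, a replicate block, offsets for GC content, fits of the groups compared alone, fits without the 7 libraries under 12000 detected genes, leaving out each library in turn, and CPM on raw totals. The members and the pathway and marker lists were chosen with earlier results of these data known. All 9 members are described in every library. From the pathway lists, genes past the threshold or up to 3 of the highest level are named. The 3 most similar genes of each member are those of highest Pearson correlation. Some genes of these lists are not reported here.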

Additional observations from a re-analysis of the deposited data

Results flagged for a closer look

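In the main fit, the response of Ccl9 to hemorrhage at day 7 passed as larger in GF than in SPF mice. The interaction was 2.08 on the log2 scale (edgeR adjusted p = 0.0458), beside a median of −1.81 over all tested genes. The log2 fold change of Ccl9 against sham was 1.99 in GF mice and −0.08 in SPF mice. The interaction was 2.06 with a replicate block (adjusted p = 0.068) and 0.25 with GC offsets (adjusted p = 0.91). The call held in 3 of 12 fits that left out 1 library and in 1 of 7 alternatives. Groups of 3 libraries are too small for a test of single outlying libraries.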

How the results depend on the processing

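Of the 16 calls of members, 7 held in every fit that left out 1 library: Ccl12 in ABX and Ccl2 and Ccl12 in GF mice at day 7 against sham, and Ccl6 and Ccl9 in GF day 7 against GF day 3 and against SPF day 7. The numbers of members called moved as follows, and the cause was not tested. With DESeq2 they were 2, 1, 2, 7 and 1 for SPF day 3, SPF day 7, ABX day 3, ABX day 7 and GF day 3 against sham, 5 for ABX day 7 against day 3, 4 for ABX against SPF day 7, and 1 and 0 for the ABX and GF interactions at day 7. With limma voom they were 2, 1, 2 and 5 for SPF day 3, SPF day 7, ABX day 3 and ABX day 7 against sham, 5 and 5 for day 7 against day 3 in ABX and GF mice, and 2 for ABX against SPF day 7. The share of all genes called by DESeq2 or limma voom is not given for ABX day 7 against sham. It is also missing for ABX and GF day 7 against day 3, for the GF interaction and for the settings below. Counts of members there cannot be read against all genes. Without the libraries under 12000 detected genes they were 2, 1 and 2 for SPF day 3, SPF day 7 and ABX day 3 against sham. That setting could not be fitted for GF day 7, which keeps no library. It leaves 1 library in ABX day 7 and in GF sham, assumed to vary like the other groups, so no count is given for comparisons with these 2 groups. With GC offsets the numbers were 1 for ABX day 3 and 2 for GF day 7 against sham, 0 for GF against SPF day 7 and 0 for the GF interaction, and Ccl12 in GF day 7 against day 3 turned to −0.30 (from 1.51, neither called). DESeq2 size factors gave 3 for GF day 7 against sham and 0 for the interaction. Without the filter the numbers were 1 for ABX day 7 against day 3 and 0 for the interaction. Fits of the compared groups alone gave 2 for ABX day 3, 1 for ABX day 7 and 0 for GF day 7 against sham, 0 and 4 for day 7 against day 3 in ABX and GF mice, and 0 for the interaction. Leaving out each library gave 1 to 3 for ABX day 7 and 3 to 5 for GF day 7 against sham, 0 to 4 for ABX day 7 against day 3, and 0 to 2 for the GF interaction. The replicate numbers did not pair the libraries: 7 of 27 correlated best with their own number. With a replicate block the GF interaction had 0 members called, with Ccl9 at 2.06 (adjusted p = 0.068). On raw totals 13 of 81 group means moved by more than their SD.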
